A study of Mus musculus with 5 samples.

Results

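Pou5f1, Nanog, Sox2, Utf1, Dnmt3b, Otx2, Pim2, Slc7a3 and Zic2 are 9 genes associated with pluripotency and the epiblast, chosen by name among the 32285 genes counted in each library, and all 9 were found under their symbols. They were followed in mouse epiblast stem cells (EpiSCs, pluripotent cells that are grown from the epiblast of the post-implantation embryo) on their way to mesoderm. The EpiSCs, 1 wild-type line from a 129 background, were differentiated for 3 days in N2B27 medium, and every condition contained Chir99021 (Chi), which activates Wnt signaling, at 1 µM together with 8 ng/ml BMP4. Cells received in addition 0, 0.75, 3 or 12 ng/ml FGF2, or 30 nM of the FGFR inhibitor AZD4547 (FGFRi), for which no FGF2 dose is stated, so that a difference between the FGFRi and the 0 ng/ml library cannot be assigned to the inhibitor alone. There was 1 single-cell library per condition, the starting EpiSCs are not among the libraries analysed here, and the spread between cultures is unknown, so that no difference between libraries was tested and the 95% intervals below cover counting error only.

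In the embryo, OCT4 (encoded by Pou5f1), NANOG and SOX2 form the core of the transcription factor network that keeps epiblast cells pluripotent. OCT4 and NANOG persist in the posterior epiblast and the primitive streak when gastrulation starts, whereas SOX2 and OTX2 become concentrated in the anterior, neural part of the epiblast. Brachyury (T, also known as T/Bra) marks the primitive streak and nascent mesoderm, and E-cadherin (Cdh1) marks epithelial cells and is lost as cells ingress.

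The level of a gene is given as its UMIs (unique molecular identifiers, which count captured RNA molecules) per 1000000 UMIs of the retained cells of a library, in CPM. Where 5 values are listed, they follow the order FGFRi, 0, 0.75, 3 and 12 ng/ml FGF2. Between 1696 and 2725 cells per library were retained, 10653 in all, with between 47824660 and 81538748 UMIs and median depths between 24408 and 29661.5 UMIs per cell. Only 7 barcodes occurred in more than 1 library. In these summed libraries, fewer expressing cells and less RNA per cell give the same level, and shares of cells are therefore given beside it. Shares were taken after each cell had been thinned to 10000 UMIs, which left out 94 shallower cells, between 9 and 39 per library. Of the genes that set naive pluripotency apart from the epiblast state, Zfp42, Nr0b1, Dppa3 and Esrrb, named here for their low levels, had at most 0.334 CPM in any library, and Nr0b1 had no UMI at all, where a count of 0 allows up to between 0.0368 and 0.0627 CPM. Other genes of the 11 on this list were present, as Klf5 had between 40.6 and 57.1 CPM, Klf4 up to 15.3 CPM, Fgf4 up to 11.4 CPM and Prdm14 up to 2.06 CPM, and the summed level of the list was between 59.5 and 70.8 CPM.

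Upstream sequence is shown for the members that had their highest level in the same cluster of cells at 0.75, 3 and 12 ng/ml FGF2 (cluster 4, described below), namely Pou5f1, Nanog and Pim2. OCT4 and SOX2 are known to bind neighboring POU and SOX elements side by side. The bases before the RefSeq start on GRCm38.p6 were searched on both strands for ATGCAA, part of the POU octamer, and ACAATG, a SOX core. These letters do not overlap each other and were chosen after the sequences had been seen. RefSeq windows of 250 bases were found for 7 of the 9 members, and not for Slc7a3 and Zic2. The lines below run 5′ to 3′ on the strand of the gene, end before the first transcribed base in both RefSeq and GENCODE, and carry the matches in capitals.

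Nanog (chr6:122707239-122707488, + strand): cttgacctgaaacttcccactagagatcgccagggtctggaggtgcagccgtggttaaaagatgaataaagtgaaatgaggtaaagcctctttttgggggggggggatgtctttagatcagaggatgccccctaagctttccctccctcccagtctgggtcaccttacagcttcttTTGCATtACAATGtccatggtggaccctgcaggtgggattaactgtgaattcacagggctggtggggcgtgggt
Pim2 (chrX:7878056-7878261, + strand): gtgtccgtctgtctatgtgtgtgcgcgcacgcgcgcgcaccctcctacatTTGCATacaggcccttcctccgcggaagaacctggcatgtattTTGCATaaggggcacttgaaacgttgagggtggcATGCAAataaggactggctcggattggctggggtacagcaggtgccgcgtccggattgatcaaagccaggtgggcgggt
Pou5f1 (chr17:35505782-35506017, + strand): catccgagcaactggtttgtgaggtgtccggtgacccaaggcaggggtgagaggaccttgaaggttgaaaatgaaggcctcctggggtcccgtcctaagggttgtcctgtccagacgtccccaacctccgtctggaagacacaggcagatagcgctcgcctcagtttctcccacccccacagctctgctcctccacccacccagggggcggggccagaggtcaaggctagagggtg

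In Nanog, a POU match that began 74 bases before the start lay next to a SOX match that began 67 bases before it, with 1 base between them. Pim2 held 3 POU matches, which began 200, 157 and 123 bases before the start, and no SOX match. Positions are counted from the RefSeq start, and the printed Pim2 line of 206 bases ends 44 bases short of it. Pou5f1 held neither in its window. Of the other members with a window, Sox2 held 1 POU match that began 99 bases before the start, and Utf1, Dnmt3b and Otx2 held none. The RefSeq starts used for Sox2 and Otx2 lie 410 and 6175 bases from the GENCODE starts of these genes. Among all 32851 RefSeq windows of this length, 9.45% held the POU letters, 10.7% the SOX letters and 1.40% both. At least 2 POU matches were held by 0.767% of these windows, and at least 3 by 20 windows. A match describes letters only and is no evidence of binding in these cells.

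All 9 members are protein-coding genes, and their positions on GRCm38 in GENCODE vM21 place them on 7 chromosomes. Nanog (chr6:122707489-122714633), Utf1 (chr7:139943789-139945112), Pim2 (chrX:7878262-7883432), Slc7a3 (chrX:101079210-101086020) and Zic2 (chr14:122475435-122479852) overlap no other annotated gene. Sox2 (chr3:34650405-34652461) lies within the noncoding gene Sox2ot on the same strand, and Otx2 (chr14:48657677-48673819) overlaps Gm49154 on its own strand. Their UMIs are therefore uncertain where the counting could not separate these genes. Pou5f1 (chr17:35506018-35510772), Otx2 and Dnmt3b (chr2:153649450-153687730) also overlap genes on the opposite strand, namely Gm19553, Otx2os1 and Dnmt3bos.

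**Figure D1:**
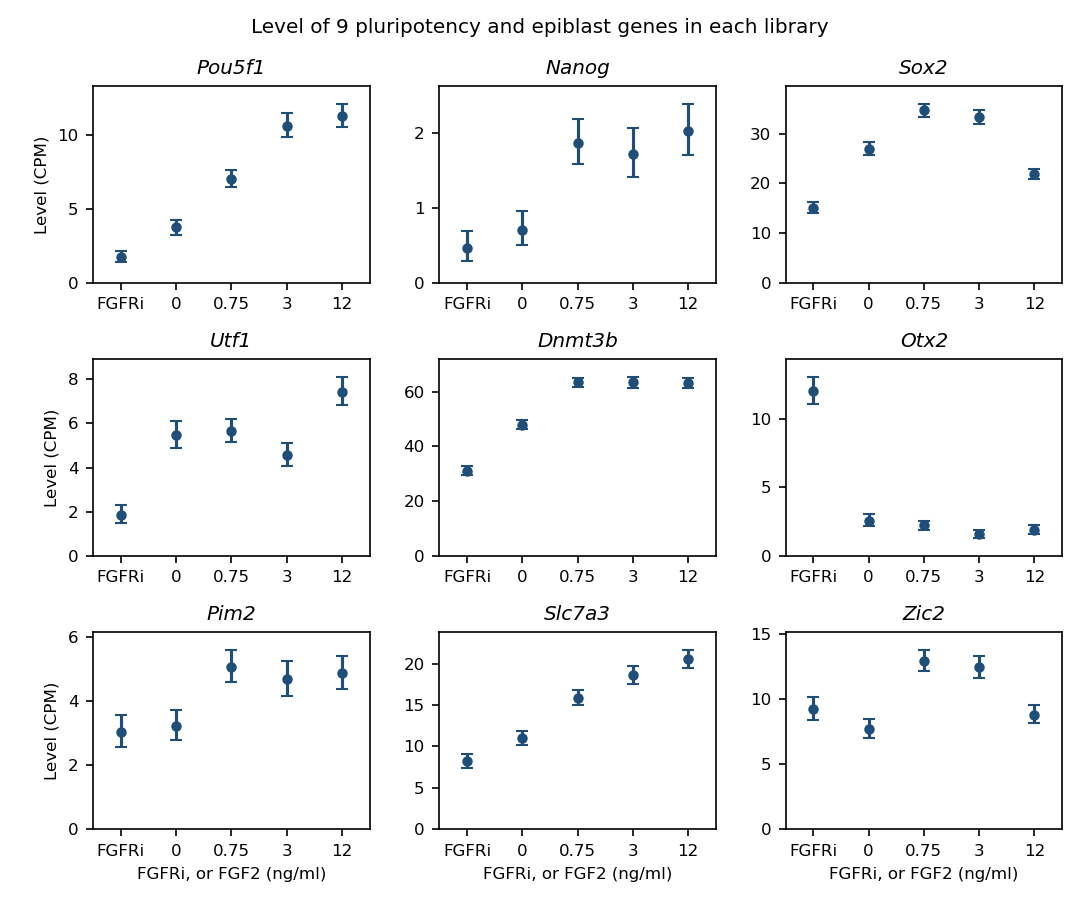
Level of each of the 9 genes in CPM (y axis, from 0, with its own scale per gene) in the FGFRi library and at 0, 0.75, 3 and 12 ng/ml FGF2 (x axis, categories). Points are summed levels of 1 library each and bars are exact Poisson 95% intervals, and the FGFRi library is the lowest for every gene apart from Otx2, where it is the highest, and Zic2.

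Among the core factors, Pou5f1 was lowest in the FGFRi library and higher at each FGF2 dose, with 1.74, 3.75, 7.05, 10.7 and 11.3 CPM. The last step was not resolved from counting error, with a ratio of 1.06 (0.958 to 1.18), while the intervals of the other neighboring ratios lay above 1. The share of cells with a Pou5f1 UMI followed the same order, at 1.56%, 2.20%, 4.66%, 7.23% and 8.80% after thinning, and at between 3.88% and 18.7% without thinning. Even at 12 ng/ml, most cells thus had no Pou5f1 UMI, and 4.70% of the cells held at least 50% of all Pou5f1 UMIs.

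Nanog was scarce throughout. It stood at 0.460, 0.704, 1.88, 1.72 and 2.03 CPM, which rests on between 22 and 153 UMIs per library. The libraries fell into a lower pair without FGF2 or with FGFRi and a higher group of 3 with FGF2, with no resolved order inside either. At 12 ng/ml, 1.38% of the thinned cells had a Nanog UMI, and the 25 cells with the most Nanog UMIs, 1% of the library, held 54.2% of them.

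Sox2 did not follow the dose. Its level was 15.1, 27.0, 34.7, 33.3 and 21.9 CPM. The 12 ng/ml library was thus the second lowest, below the 0 ng/ml library by a ratio of 0.811 (0.755 to 0.870), and the 0.75 and 3 ng/ml libraries were not resolved from each other. Thinned shares ran in parallel, at 11.1%, 19.8%, 24.0%, 23.0% and 15.6%.

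Of the other transcription factors, Utf1, a chromatin-bound factor of pluripotent cells, had 1.86, 5.47, 5.67, 4.57 and 7.43 CPM. The FGFRi library was the low one, and the 0 and 0.75 ng/ml libraries were not resolved. Utf1 UMIs were concentrated in few cells, as a single cell at 3 ng/ml held 44 of the 295 UMIs of that library. Otx2, a homeobox factor of the anterior epiblast and of the transition from the naive state, was the only member that was highest with FGFRi, at 12.0 CPM against 2.57, 2.22, 1.56 and 1.88 CPM in the others. Among the 4 libraries without FGFRi, no pair of Otx2 levels that follow each other in size was resolved, but 3 ng/ml was below 0.75 ng/ml by a ratio of 0.704 (0.547 to 0.903). Zic2, a zinc finger factor of the epiblast and neural plate, had 9.26, 7.71, 12.9, 12.4 and 8.80 CPM, and was thus highest at the intermediate doses, as was Sox2.

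The remaining members encode enzymes and a transporter. Dnmt3b, the de novo DNA methyltransferase of the epiblast, had 31.1, 48.0, 63.4, 63.4 and 63.3 CPM. It was at the same level in the 3 libraries with FGF2 within narrow limits, as the ratio between 0.75 and 3 ng/ml had an interval from 0.960 to 1.04. Pim2, a serine/threonine kinase that promotes survival, had 3.03, 3.22, 5.08, 4.69 and 4.87 CPM, again a lower pair and a higher group of 3. Slc7a3, a transporter of cationic amino acids, had 8.22, 11, 15.9, 18.6 and 20.5 CPM. It was the only member for which the intervals of all neighboring ratios lay above 1. Over all members, 16 of the 36 neighboring pairs in the order of levels had an interval that included 1.

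With 1 library per condition, a gene was counted as changed when its ratio between libraries was at least 2 and it had at least 1 CPM in either library. Between FGFRi and 0 ng/ml FGF2, 3 of the 8 members at this level changed, against 12.3% of the 12828 genes compared. Pou5f1 was higher at 0 ng/ml, by a ratio of 2.16 (1.67 to 2.82), as was Utf1, by 2.94 (2.32 to 3.77), where 4.43% of all genes were higher. Otx2 was lower by a log2 ratio of -2.23, where 7.90% of all genes were lower. The median change in log2(CPM + 1) was 0.49 over the 8 members and -0.01 over all genes compared. The call of Pou5f1 depended on the weight of cells, as its ratio fell below 2 when each cell counted equally, and was 1.78 (1.36 to 2.34) without the cells of cluster 4. The mesenchyme markers moved along this comparison, with 7 of 7 lower at 0 ng/ml and a summed level of 5779 CPM with FGFRi against 1751 CPM without it, and their part in the differences of the members was not tested.

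From 0 to 0.75 ng/ml FGF2, only Nanog of the 9 members changed, by a ratio of 2.67 (1.87 to 3.88), against 3.51% of 12579 genes, 0.890% higher and 2.62% lower. Pou5f1 stayed below the limit at 1.88 (1.60 to 2.21). No member changed from 0.75 to 3 ng/ml, where 2.03% of all genes did (0.624% higher and 1.41% lower), and none from 3 to 12 ng/ml, where 0.523% did (0.274% higher and 0.250% lower). Over the whole range from 0 to 12 ng/ml, Pou5f1 was higher by a ratio of 3.02 (2.60 to 3.53) and Nanog by 2.89 (2.02 to 4.21), against 10.3% of 12686 genes changed, 3.58% higher and 6.77% lower. Both calls of Nanog were lost without the cells of cluster 4, with ratios of 1.97 (1.27 to 3.14) from 0 to 0.75 ng/ml and 1.45 (0.884 to 2.41) from 0 to 12 ng/ml. The comparisons that start or end at 0 ng/ml share that library. Slc7a3 had a ratio of 1.86 (1.70 to 2.05) and Pim2 of 1.51 (1.26 to 1.82), and the median change in log2(CPM + 1) was 0.39 over the members and 0.01 over all genes. The primitive streak list moved along this comparison, as 7 of its 7 genes were higher at 12 ng/ml and its summed level went from 67.7 to 459.8 CPM. Its part in the differences of the members was not tested.

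Related genes gave a mixed picture. Of 12 further genes of general pluripotency, 7 were compared from 0 to 12 ng/ml, and L1td1 (7.89 to 24.5 CPM), an RNA-binding protein of pluripotent cells, and Tdgf1 (0.546 to 16.6 CPM), the NODAL co-receptor, were higher and none lower. The RNA-binding protein Lin28a (154 and 178 CPM), Trim71 (159 and 143 CPM) and the zinc finger factor Sall4 (92.2 and 141 CPM) did not change over this range, although Lin28a and Sall4 were higher at 0 ng/ml than with FGFRi (49.2 and 36.5 CPM). Among the formative and primed epiblast genes reported here, Lefty1, Lefty2 and Fst were higher at 12 ng/ml while Pou3f1 was lower. Lefty1, an inhibitor of NODAL, went from 2.90 to 21.2 CPM, and Pou3f1, a POU factor of the primed epiblast, from 30.8 to 14.7 CPM. Of 11 naive genes, 7 were compared, with Klf2, Prdm14 and the ligand Fgf4 (0.669 to 10.1 CPM) higher and Klf4 (8.34 to 3.07 CPM) and Tbx3 lower.

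Enzymes of DNA methylation other than Dnmt3b changed between FGFRi and 0 ng/ml only among the comparisons made, with Uhrf1, which guides maintenance methylation, at 50.6 and 117 CPM and the demethylase Tet2 at 11.9 and 5.84 CPM. Dnmt1 (150 and 146 CPM) and Dnmt3a (35.9 and 43.4 CPM) did not change over the FGF2 range. The median over the 6 compared genes of this list was 0.11 on the log2(CPM + 1) scale from 0 to 12 ng/ml. Among the paralogs of the members reported here, Pou3f1 and Sox1 were lower at 12 ng/ml than at 0 ng/ml.

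T and Cdh1 served as companions to place the members between streak and epithelium. The level of T was 0.753, 26.7, 92.7, 205 and 208 CPM, and that of Cdh1 was 85.8, 93.6, 74.6, 45.3 and 39.7 CPM. T was thus higher and Cdh1 lower at 12 than at 0 ng/ml, by more than the limit of change. A cell was counted as T+ or Cdh1+ when it had a UMI of the gene after thinning. These classes are ranges and not cell types, since 33.4% of the T+ cells and 58.9% of the Cdh1+ cells at 12 ng/ml had exactly 1 such UMI. In the FGFRi library, only 6 of 1662 cells were T+, too few to compare.

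Pou5f1 was detected more often in T+ than in T- cells at the 3 FGF2 doses. At 0.75 ng/ml the share was 8.03% (6.33 to 10.0) of T+ cells and 3.02% (2.28 to 3.91) of T- cells, with 3 ng/ml 10.2% (8.60 to 12.0) and 2.90% (1.88 to 4.25), and with 12 ng/ml 10.2% (8.71 to 11.8) and 6.25% (4.70 to 8.12). The intervals did not overlap in any of these libraries, but they did at 0 ng/ml (3.17% and 2.03%). Of the cells with Pou5f1 at 3 ng/ml, 83.7% were T+, against 59.2% of all cells. Nanog was also more frequent in T+ cells, with intervals apart at 0.75 ng/ml (3.05% and 0.878%) and 12 ng/ml (1.85% and 0.481%).

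Over the whole libraries, the other members did not share this pattern. Dnmt3b was less frequent in T+ cells at 0.75 ng/ml (35.9% and 44.6%) and 3 ng/ml (38.6% and 47.2%), as were Otx2 (0.958% and 2.67%) and Zic2 (7.83% and 13.9%) at 3 ng/ml. At 12 ng/ml, Utf1 (3.51% and 6.13%) and Slc7a3 (15.1% and 20.7%) were less frequent in T+ cells. Sox2 was more frequent in T+ cells at 0 ng/ml (27.0% and 18.6%) and Utf1 less frequent (0.397% and 3.85%), while at the higher doses the Sox2 intervals overlapped. Of all genes with at least 1 CPM, 9.16%, 10.5%, 5.87% and 5.26% were less frequent in T+ cells with intervals apart from 0 to 12 ng/ml. Of the 9 members, 1, 1, 3 and 2 were. At the same doses, 8.02%, 9.55%, 5.14% and 3.104% of these genes were more frequent in T+ cells with intervals apart. This held for 1, 2, 1 and 2 of the 9 members.

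**Figure D2:**
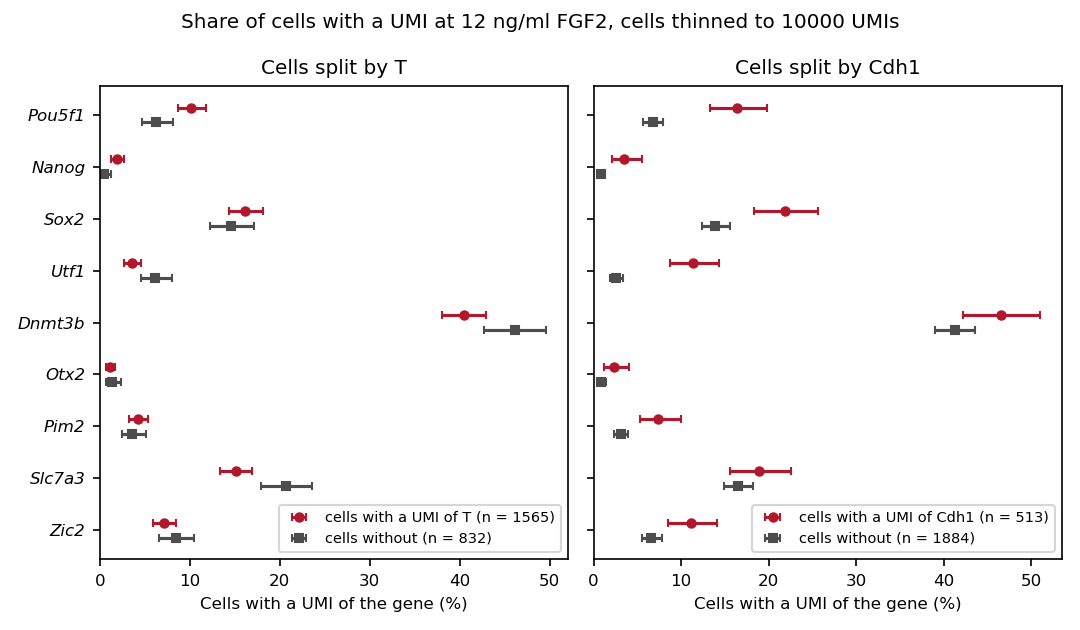
Share of cells with a UMI of each gene (x axis, percent) at 12 ng/ml FGF2, in cells with and without a UMI of T (left, 1565 and 832 cells) or of Cdh1 (right, 513 and 1884 cells), all thinned to 10000 UMIs. Bars are exact binomial 95% intervals over cells of 1 library, and the shares of all 9 genes lie higher with Cdh1, where 49.6% of all genes do, whereas with T those of Pou5f1 and Nanog lie higher and those of Utf1 and Slc7a3 lower with intervals apart.

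Splitting by Cdh1 gave a picture that changed with the dose. With FGFRi, Sox2 (3.62% of Cdh1+ and 16.5% of Cdh1- cells) and Zic2 (4.34% and 11.9%) were less frequent in Cdh1+ cells and Dnmt3b (28.1% and 18.8%) was more frequent. At 0 ng/ml, Sox2 (15.9% and 23.3%) was still less frequent with Cdh1, while Utf1 (4.70% and 2.13%) and Otx2 (2.54% and 0.673%) were more frequent. Of all genes with at least 1 CPM, 8.47% were more and 5.79% less frequent in Cdh1+ cells with intervals apart with FGFRi. At 0 ng/ml, 11.6% were more and 9.98% less frequent. At 0.75 ng/ml, 7 of the 9 members had the higher share in Cdh1+ cells, 3 of them with intervals apart, against 49.3% and 15.5% of 12326 genes. These 3 were Utf1 (7.65% and 1.73%), Dnmt3b (47.7% and 38.1%) and Otx2 (3.58% and 1.20%). At 3 ng/ml, 8 of the 9 members had the higher share in Cdh1+ cells, 7 of them with intervals apart, against 49.7% and 10.1% of the 12250 genes with at least 1 CPM in this library. At 12 ng/ml all 9 did, 6 of them with intervals apart, against 49.6% and 12.5% of 12242 genes. Over the whole libraries, Sox2 had thus turned. It was found in 30.1% of Cdh1+ and 20.5% of Cdh1- cells at 3 ng/ml, and in 21.8% and 13.9% at 12 ng/ml. Inside clusters 0, 1 and 4, described below, the Sox2 intervals overlapped at both doses. At 12 ng/ml, its shares in Cdh1+ and Cdh1- cells were 23.5% and 32.5% in cluster 0. They were 10.0% and 21.9% in cluster 1, and 29.2% and 26.6% in cluster 4. Pou5f1 was detected in 16.4% (13.3 to 19.9) of Cdh1+ and 6.74% (5.65 to 7.97) of Cdh1- cells at 12 ng/ml, and in 11.1% and 5.88% at 3 ng/ml, while the intervals overlapped at 0.75 ng/ml (5.91% and 3.89%). A test of the change between doses was not possible with 1 library each.

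Combining both companions, Pou5f1 and Nanog were highest in T+ Cdh1+ cells. In this class, which held 164, 257 and 289 cells at 0.75, 3 and 12 ng/ml, Pou5f1 stood at 26.1 CPM (22.0 to 30.8), 28.3 CPM (24.8 to 32.1) and 28.1 CPM (24.8 to 31.8). Its level did not differ beyond counting error between these doses. In T+ Cdh1- cells it was 7.13, 10.4 and 9.03 CPM, in T- Cdh1+ cells 6.37, 7.76 and 12.3 CPM, and in T- Cdh1- cells 4.0, 3.96 and 6.98 CPM. T+ Cdh1+ cells were therefore not intermediate between the classes that carried 1 of both companions, but above both. Their median depth of 28968 UMIs at 12 ng/ml lay between the 27000.5 of T+ Cdh1- and the 29897.5 of T- Cdh1+ cells. At the lower doses it was the highest of all classes. It was 29350 UMIs at 0.75 ng/ml and 29681 UMIs at 3 ng/ml, where T+ Cdh1- cells came next with 28015 and 28956 UMIs. The part of depth in these levels was not tested. At 0 ng/ml, only 44 cells were T+ Cdh1+, under the limit of 50 cells for a level.

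Nanog followed Pou5f1, with 9.64, 5.17 and 7.91 CPM in T+ Cdh1+ cells and at most 2.45 CPM in any other class at these doses. Pim2 was at 7.97, 9.86 and 14.6 CPM in T+ Cdh1+ cells, and between 3.15 and 5.22 CPM in the other classes. Sox2 was also highest in T+ Cdh1+ cells, at 54.9, 50.9 and 37.6 CPM. The next class had 41.2, 40.5 and 24.1 CPM, with intervals apart at each dose. Different classes led for some of the other members. Dnmt3b was highest in T- Cdh1+ cells, at 83.2, 95.6 and 87.0 CPM, against 61.2, 63.9 and 67.8 CPM in T+ Cdh1+ cells. Utf1 was highest in T+ Cdh1+ cells at 0.75 ng/ml (18.0 CPM) but in T- Cdh1+ cells at 12 ng/ml (26.7 CPM, against 13.4 CPM), as was Slc7a3 at 12 ng/ml (34.2 CPM against 18.7 CPM).

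**Figure D3:**
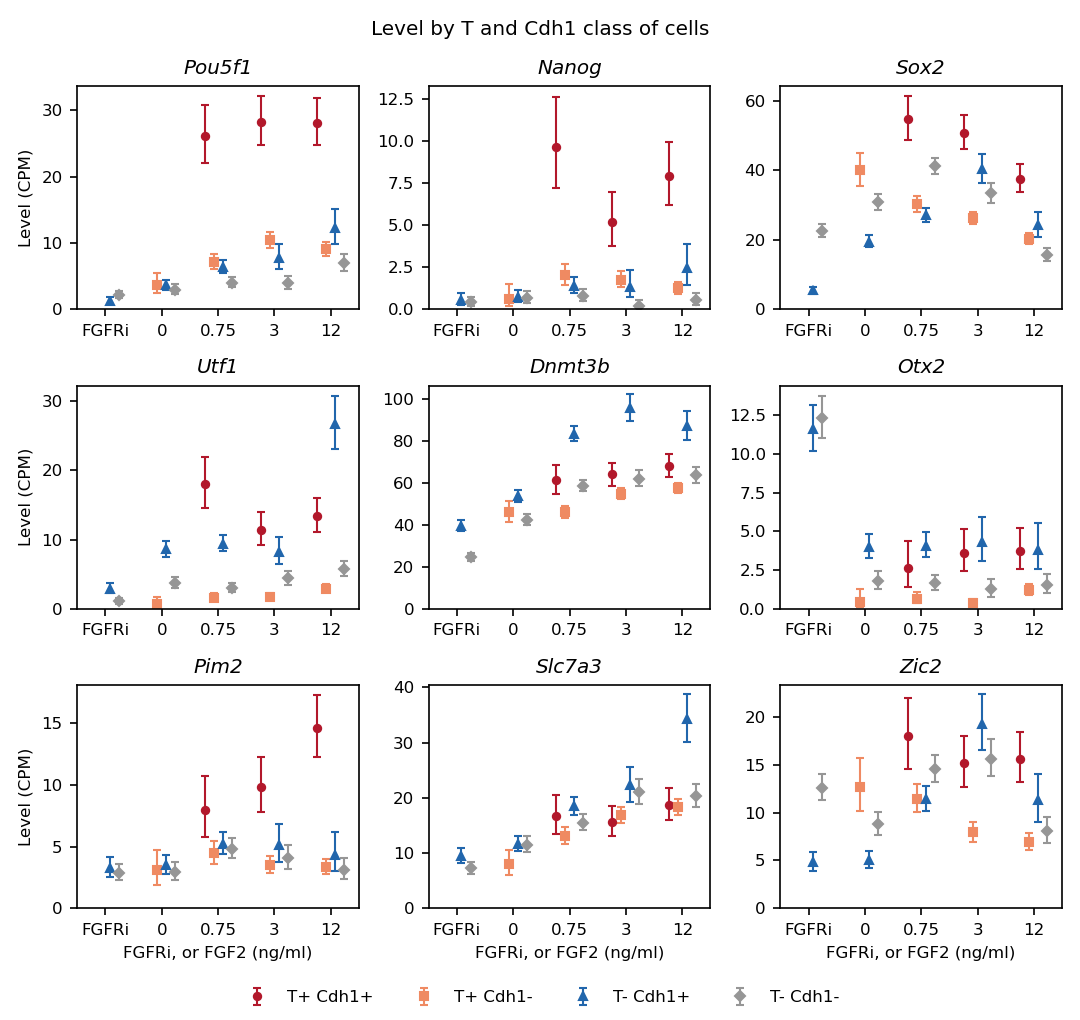
Level in CPM (y axis, from 0, with its own scale per gene) of the 9 genes by T and Cdh1 class of the cells, in the FGFRi library and at 0, 0.75, 3 and 12 ng/ml FGF2 (x axis, categories). Points are summed levels of classes of at least 50 cells and bars are exact Poisson 95% intervals, and T+ Cdh1+ cells are highest for Pou5f1 and Nanog at every dose shown for that class, between 26.1 and 28.3 CPM for Pou5f1.

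To compare the members between groups of cells that were not formed with them, the cells of all libraries were clustered without the members, T, Cdh1 and the lists of naive, general and formative or primed pluripotency genes. Of the 6 clusters, cluster 4 (1062 cells) was led by Sprr2a3, Psmb8 and Igfbp3 and had 6 of the 7 streak markers raised, which are T, Mixl1, Fgf8, Mesp1, Wnt3a and Evx1. Streak markers were also raised in cluster 1 (3 of 7) and cluster 2 (4 of 7), and among the formative and primed epiblast genes reported here, Lefty1, Lefty2 and Fst were raised in cluster 4. Cluster 0 (2717 cells) was led by Dlx5, Rab25 and Cxcl12 and had 5 of 6 surface ectoderm markers raised, cluster 1 (2348 cells) by Epha5, Zbtb16 and Lix1 with 4 of 6 caudal epiblast and neuromesodermal markers, and cluster 2 (2137 cells) by Frzb, Pcdh19 and Tbx6 with 5 of 6 presomitic markers. Cluster 3 (2100 cells) was led by Cdkn2a, Cdkn2b and Acta2, had 7 of 7 mesenchyme markers and, as did cluster 0, 5 of 6 surface ectoderm markers raised, and held 91.3% of the FGFRi-treated cells. Cluster 5 (289 cells) was led by Ascl2, Esx1 and Gm9112, with 3 of 6 extraembryonic ectoderm and 3 of 6 surface ectoderm markers raised. Clusters are called by their number, and levels are given for groups of at least 50 cells.

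Cluster 4 had the highest Pou5f1 level, which was not resolved between 0.75, 3 and 12 ng/ml FGF2. It was 30.0 CPM (26.2 to 34.3), 31.1 CPM (28.1 to 34.4) and 30.3 CPM (27.5 to 33.4) at these doses. The cluster held 8.48%, 17.6% and 18.1% of the cells of these libraries, 1.12% at 0 ng/ml and 1 cell with FGFRi. Its 19 cells at 0 ng/ml, under the limit of 50 cells for a level, had 40 Pou5f1 UMIs, or 47.0 CPM (33.5 to 63.9). Cluster 4 contributed 37.9%, 55.7% and 51.1% of all Pou5f1 UMIs at the 3 doses and 50.3%, 58.6% and 70.1% of the Nanog UMIs. This picture depended on the clustering. A finer division into 10 clusters (resolution 0.5) gave other groups of cells, with their own numbers. In this division, a smaller cluster than cluster 4 had the highest Pou5f1 level at 3 ng/ml (31.8 CPM, 145 cells) and 12 ng/ml (28.1 CPM, 218 cells). Cluster 4 held 375 and 436 cells at these doses. The same cluster of the finer division was also the highest at 0 ng/ml (7.94 CPM, 432 cells) and with FGFRi (7.16 CPM, 75 cells). A different one was highest at 0.75 ng/ml (25.9 CPM).

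The Pou5f1 level was higher at 12 than at 0 ng/ml in clusters 0, 1 and 2. In cluster 0 it was 4.89, 7.57, 10.3 and 15.4 CPM (13.1 to 17.9 for the last) from 0 to 12 ng/ml. Cluster 2 had 0.488, 2.08, 5.93 and 5.37 CPM along the same doses, and cluster 1, the lowest from 0.75 ng/ml on, 0.633, 1.60, 2.19 and 2.27 CPM. In cluster 1, the levels from 0.75 to 12 ng/ml were not resolved from each other. Outside cluster 4, the ratio of Pou5f1 between 0 and 12 ng/ml was 2.21 (1.85 to 2.66) in place of 3.02, and that of Nanog fell below the limit of change, as given above.

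As free RNA in droplets can give UMIs to cells that do not express a gene, shares were set against the cluster with the lowest one. At 12 ng/ml, 24.1% (20.2 to 28.4) of the cells in cluster 4 had a Pou5f1 UMI against 2.55% (1.32 to 4.41) in cluster 1, at median depths of 28555.5 and 25506 UMIs. Nanog was found in 5.29% of the cells of cluster 4 and in 0 of 471 cells of cluster 1, which allows a share of up to 0.780%. The shares of 3.90% and 4.92% in cluster 2 at 3 and 12 ng/ml had intervals that overlapped those of cluster 1, whereas its levels of 5.93 CPM (4.84 to 7.19) and 5.37 CPM (4.59 to 6.24) had intervals above those of cluster 1 (1.58 to 2.96 and 1.52 to 3.26 CPM). The share in cluster 1 was itself uneven at 3 ng/ml, as the T+ cells described below held all its cells with Pou5f1. The part of free RNA in this share was not tested.

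**Figure D4:**
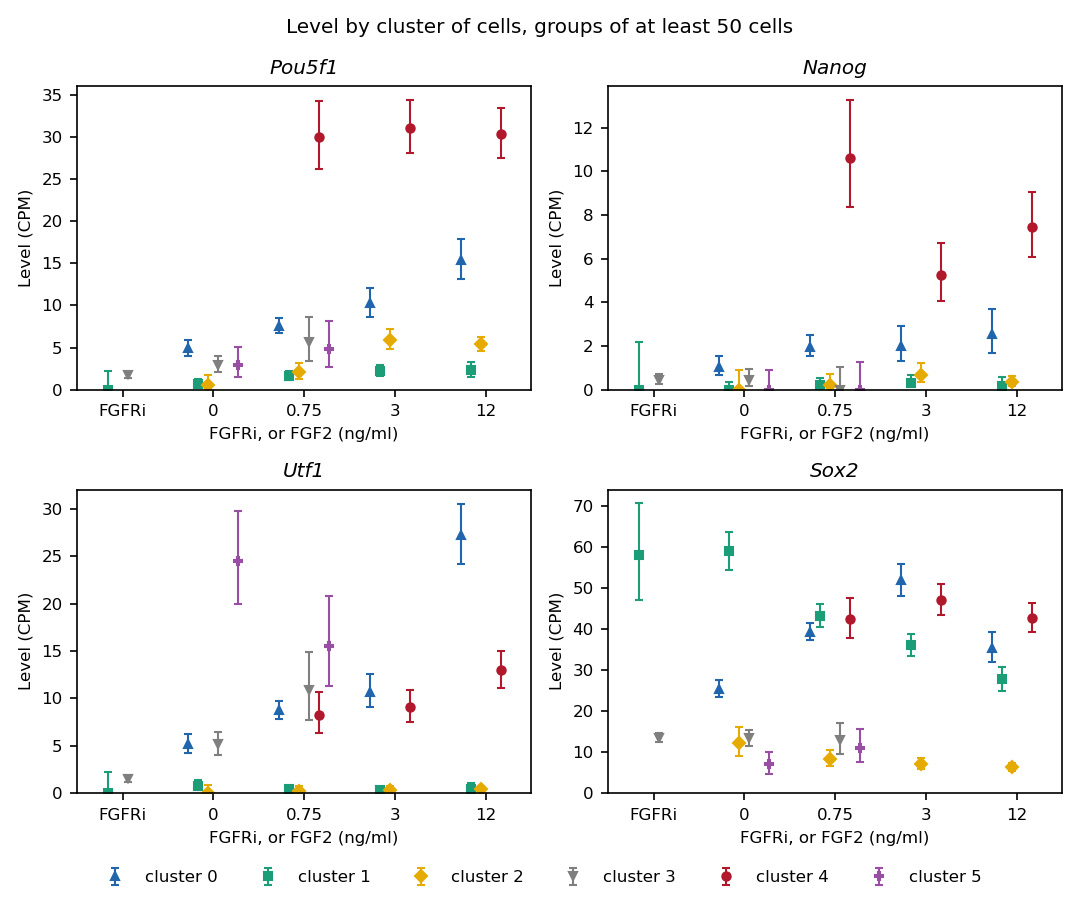
Level in CPM (y axis, from 0, with its own scale per gene) of Pou5f1, Nanog, Utf1 and Sox2 by cluster of cells in each library (x axis, categories). Points are summed levels of groups of at least 50 cells and bars are exact Poisson 95% intervals, and cluster 4 lies at between 30.0 and 31.1 CPM of Pou5f1 at 3 doses while cluster 0 goes from 4.89 to 15.4 CPM.

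Other members were distributed differently. Pim2 was highest in cluster 4, at 12.1, 8.59 and 11.7 CPM from 0.75 to 12 ng/ml, against at most 5.65 CPM in any other cluster at these doses. Sox2 was highest in cluster 1 at 0 ng/ml, at 58.9 CPM, where this cluster held 42.5% of all Sox2 UMIs, and its level there was 43.2, 36.1 and 27.7 CPM at the doses above. In cluster 4, Sox2 was between 42.4 and 47.1 CPM at all 3 doses, and in cluster 2 between 6.28 and 12.2 CPM. Zic2 in cluster 1 also went from 17.1 to 8.62 CPM between 0 and 12 ng/ml.

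Utf1 was nearly restricted to clusters 0, 3, 4 and 5, as clusters 1 and 2 had at most 0.723 CPM in any library. It was highest in cluster 5 at 0 ng/ml (24.5 CPM) and in cluster 0 at 12 ng/ml (27.2 CPM, against 10.7 CPM at 3 ng/ml). The difference in Utf1 between 3 and 12 ng/ml was below the limit of change for the library as a whole (ratio 1.63). Otx2 was at 12.7 CPM in cluster 3 with FGFRi and at 4.45 CPM in the same cluster at 0 ng/ml, so that the difference between these libraries was also seen within a cluster that both share. Dnmt3b was highest in cluster 0, at 54.3, 81.9, 94.5 and 92.2 CPM from 0 to 12 ng/ml, and between 43.3 and 50.8 CPM in cluster 4, the lowest or second lowest level at each of these doses.

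The T+ Cdh1+ cells and cluster 4 overlapped only in part. Of the T+ Cdh1+ cells, 43.9%, 53.3% and 55.7% lay in cluster 4 at 0.75, 3 and 12 ng/ml, and they made up 31.2%, 36.6% and 37.0% of its cells. Inside cluster 4 at 12 ng/ml, Pou5f1 was detected in 30.4% (23.5 to 37.9) of Cdh1+ and 20.2% (15.6 to 25.5) of Cdh1- cells, with overlapping intervals. Pim2 had intervals apart in this cluster, with 12.5% (7.91 to 18.5) and 3.37% (1.55 to 6.30). So did Zic2, with 15.5% (10.4 to 21.8) and 6.37% (3.75 to 10.0). Inside cluster 0 at 12 ng/ml, Pou5f1 was detected in 10.8% of Cdh1+ and 9.76% of Cdh1- cells, a difference of 1.04 points where it was 9.63 points over the whole library. The difference between T+ and T- cells was seen inside cluster 0 at 0.75 ng/ml (14.8% and 3.77%) and 3 ng/ml (16.1% and 4.38%), with intervals apart, but they overlapped at 12 ng/ml (13.3% and 9.49%). Inside cluster 1 they were also apart at 3 ng/ml, with 3.59% (2.02 to 5.85) of T+ cells and 0 of 249 T- cells (0 to 1.47), and likewise inside cluster 2, with 5.48% (3.43 to 8.26) and 0.552% (0.0140 to 3.04), while in both clusters they overlapped at 0.75 and 12 ng/ml. At 0.75 ng/ml, Sox2 (48.1% and 24.8%) and Utf1 (15.7% and 4.91%) were also more frequent in T+ cells of cluster 0. Their intervals were apart at this dose and overlapped at 3 and 12 ng/ml. Zic2 was less frequent in T+ cells of cluster 1 at 3 ng/ml (8.85% and 17.7%), with intervals apart. The shares over all genes were not computed inside clusters.

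For most pairs of members with enough cells to compare, joint detection was not resolved from what independence would give. Pairs were compared where at least 5 cells would be found by independence. The interval of the observed over this number lay above 1 for 0 of 13, 1 of 15, 3 of 26, 4 of 23 and 7 of 24. It lay below 1 for 1 pair each with FGFRi and at 12 ng/ml. The median ratio of the compared pairs was 1.04, 1.08, 1.14, 1.11 and 1.30. At 12 ng/ml, 39 cells had both Pou5f1 and Utf1 where 9.33 would be found if both were independent, a ratio of 4.18 (2.97 to 5.71). Most pairs of rarer members, under the limit of 5 cells and thus outside these counts, had intervals above 1 at this dose. They were Pou5f1 with Nanog and Otx2, Nanog with Utf1, Otx2 and Zic2, and Pim2 with Utf1 and Otx2. Nanog with Pim2, and Otx2 with Sox2, Utf1, Slc7a3 and Zic2, had intervals that included 1. Pou5f1 and Nanog met in 18 cells where 2.90 would be found, a ratio of 6.2 (3.67 to 9.79). Nanog and Utf1 met in 12 cells where 1.46 would be found, a ratio of 8.22 (4.25 to 14.4). The same ratio over other pairs of genes was not computed. Sox2 and Zic2 met more often than by independence at 0 ng/ml (48 cells, 2.26-fold), 0.75 ng/ml (113 cells, 1.51-fold) and 3 ng/ml (77 cells, 1.54-fold). Sox2 and Slc7a3 met less often at 12 ng/ml, in 45 cells where 63.7 would be. Cells with at least 5 of the 9 members numbered 0, 4, 11, 6 and 17, and no cell had more than 7.

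Across the 21 groups of at least 50 cells formed by library and cluster, some pairs of members had like profiles, and no sets were computed. The Pearson correlation of log2(CPM + 1) was 0.885 between Pou5f1 and Nanog, 0.841 between Pim2 and Nanog, 0.870 between Sox2 and Zic2, and 0.749 between Utf1 and Otx2. Pou5f1 also had 0.729 with Pim2 and 0.683 with Utf1. The value was 0.192 between Pou5f1 and Sox2, and -0.184 between Otx2 and Zic2. Groups of 1 library share its depth and culture, so that these values are descriptions. Of the 8693 further genes with at least 10 CPM in a library, Shc1 (0.932) and Zc3hav1 (0.931) were most like Pou5f1, Cxxc5 most like Sox2 (0.911) and also Zic2 (0.905), Mea1 and Car2 (0.970 each) most like Utf1, Serpinb6a (0.963) most like Otx2, Zfp7 (0.871) most like Dnmt3b, Aftph (0.873) most like Pim2, and Srp9 (0.892) and Flywch2 (0.891) most like Slc7a3.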

How the data were processed

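The authors deposited 1 matrix per library that holds UMI counts, not normalized, for each gene in each barcode, from 10x Genomics libraries aligned to mm10. The headers give Cell Ranger 5.0.1, and the version in the methods is older. Following the methods, a barcode was kept from 2500 detected genes on if mitochondrial genes held no more than 10% of its UMIs, as did 10653 of 15375. No doublet caller was applied. Levels were UMIs summed over retained cells per 1000000 UMIs (CPM), with exact Poisson intervals, ratios had exact conditional intervals, and shares exact binomial intervals, all at 95% and for counting error only. A count of 0 was given an upper limit of 3 counts. A gene was counted as changed from a ratio of 2 on, if either of both libraries reached 1 CPM, without a test, as each condition had 1 library. Median changes used log2(CPM + 1), with a pseudocount of 1 CPM.

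Cells were thinned to 10000 UMIs for shares and for T and Cdh1 classes, with 5000 UMIs as an alternative. Clustering followed the methods in Scanpy 1.11.5 (50000 counts per cell, total counts and mitochondrial share regressed out, values clipped at 10, Leiden resolution 0.33 with leidenalg 0.10.2), with 50 principal components, 15 neighbors and random seed 0. Of 2629 variable genes, 2598 were used. A marker was counted as raised in a cluster from 5 CPM and 1.5 times the level of the other cells, after adding 1 CPM to both. Genes most like a member were the 3 with the highest correlation. Named genes of a list were those that changed or up to 4 with the highest levels. Some results for the formative and paralog lists are not reported here.

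Of the 32285 gene identifiers, 32235 were matched in GENCODE vM21, from which positions were taken, while the methods name GENCODE vM23 for counting. Promoter sequences are those of RefSeq for GRCm38.p6. Python 3.11.15, NumPy 2.4.6, SciPy 1.17.1, pandas 2.3.3 and Matplotlib 3.10.9 were used, and edgeR 4.0.16 (R 4.3.3) gave the TMM factors. The steps were tested on simulated data. The members, lists and rules were chosen with earlier results of these data known.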

Additional observations from a re-analysis of the deposited data

How the results depend on the processing

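Under at most 5% mitochondrial UMIs, all deposited barcodes, edgeR's TMM factors or no filter on low values, each of the 5 comparisons had the same called members. Without the filter, 3 of 9 members changed from FGFRi to 0 ng/ml, against 20.1% of 18623 genes. From 0 to 0.75 ng/ml, 1 of 9 did, against 12.0% of 19172 genes. From FGFRi to 0 ng/ml FGF2, the call of Pou5f1 was lost with equal weight per cell, with at least 5 CPM and without cluster 4. With a ratio of at least 1.5, 5 members changed from FGFRi to 0 ng/ml FGF2 (27.7% of all genes), 4 from 0 to 0.75 ng/ml (9.67%), 1 from 0.75 to 3 ng/ml (Pou5f1, 7.10%), 2 from 3 to 12 ng/ml (Utf1 higher, Sox2 lower, 2.87%) and 4 from 0 to 12 ng/ml (20.3%). With at least 5 CPM, 0 changed from 0 to 0.75 ng/ml (2.02% of all genes) and 1 from 0 to 12 ng/ml (Pou5f1, 6.92%), since Nanog was too low to be compared. Without cluster 4, an alternative chosen after seeing the data, the counts were 0 (3.20%) and 1 (Pou5f1, 10.6%). The called members had the same direction in 30 of 30 values computed under other filters, scalings or cell sets. These values reuse most of the same UMIs, and the calls had a ratio of at least 2, so that a reversed direction was unlikely beforehand. Pou5f1 at 12 ng/ml was at 9.96 CPM with equal weight per cell and at 6.85 CPM without cluster 4, in place of 11.3 CPM, and its share of cells was 4.82% at 5000 UMIs and 18.7% without thinning, in place of 8.80%. The difference in this share at 12 ng/ml was 3.91 points between T+ and T- cells and 6.61 points for cells with at least 2 T UMIs. Between Cdh1+ and Cdh1- cells it was 9.63 points, 4.42 points at 5000 UMIs and 20.2 points without thinning, as these settings change the UMIs drawn per cell. Leaving out the 5% of cells with the most UMIs, which could hold doublets, gave 3.38 and 8.85 points. No paired analysis was possible because each condition has 1 library and no test was made, and leaving out a replicate was not possible for the same reason.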

Other observations

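The lists that were compared beside the members held further differences. Of 6 genes used as markers of primordial germ cells, 4 were compared from 0 to 12 ng/ml FGF2, and Prdm14 (0.0704 and 1.75 CPM) and Nanos3 (0.528 and 2.03 CPM) were higher while Tfap2c (44.6 and 19.9 CPM) was lower. Only 2 of the 6, Prdm1 and Nanos3, were raised in cluster 4, the cluster with the highest Pou5f1 level. Tfap2c was raised in clusters 0 and 5 instead. Of 7 neurectoderm genes, only Pax2 and Sox1 reached 1 CPM in any library, and Sox1 was lower at 12 ng/ml (0.353 CPM) than at 0 ng/ml (1.18 CPM).

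Most surface ectoderm genes were lower at the highest dose. Of the 6 surface ectoderm genes, 5 were lower at 12 ng/ml than at 0 ng/ml, among them Krt18 (1082 and 305 CPM) and Trp63 (13.9 and 1.07 CPM). Of the 5 extraembryonic ectoderm genes compared, Tfap2c, Ascl2 (24.9 and 4.0 CPM) and Hand1 (85.7 and 32.7 CPM) were lower, while Bmp4 (76.2 and 42.3 CPM) and Cdx2 (109 and 185 CPM) did not pass the limit of change. The presomitic list was higher for 6 of 6 genes, with Tbx6 at 5.86 and 49.0 CPM. The endoderm list had 1 gene to compare, Sox17 (3.36 and 0.636 CPM), and of 3 hemato-endothelial genes compared, Lmo2 was higher and Pecam1 and Runx1 lower. The caudal epiblast and neuromesodermal list had Fgf17 and Wnt8a higher of 5 compared.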
